A study of Mus musculus with 6 samples.

Results

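The cells described here are 511 of the 5106 monocyte-gated cells that were sorted from the spinal cord of mice with experimental autoimmune encephalomyelitis (EAE), the rodent model of multiple sclerosis. They were chosen by transcript levels. A cell entered the base gate when it held at least 10 UMIs (unique molecular identifiers, each a counted transcript) of Ccr2, Ly6c2, Fn1, F10, Tgfbi, S100a4 and Plac8 together and at most 2 UMIs of the microglial genes Tmem119, P2ry12, Siglech, Sparc and Olfml3. Each base-gate cell was then scored as the mean of log1p(counts per 10000) of Lrg1, Ifitm6, Vcan, Dmkn and Crem, and the top 10% over all 4 EAE libraries were kept. The remaining 4595 base-gate cells served for comparison. The whole series held 9078 cells after filtering, out of 9079 barcodes, and its design text states 8701.

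All animals were C57BL/6 mice aged 10 weeks. Live cells were stained with DCFDA at 10 µM, a dye that fluoresces once oxidised by reactive oxygen species (ROS), and sorted as CD11b+ and dye-positive (ROS+) or dye-negative (ROS-), CD11b being the integrin carried by myeloid cells. The groups were EAE ROS+, EAE ROS- and healthy ROS-, with 2 libraries each. EAE was induced with the MOG peptide and sampled at disease onset, at score 1. Whether both libraries of a group stem from different mice is not given in the labels. The p-values below therefore measure only the spread between these libraries, which may be technical. None of the 1957 cells of the healthy libraries passed the base gate, which allows a share of up to 0.153% (3 counts of the total).

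As background, inflammatory monocytes are made in the bone marrow, leave it through the chemokine receptor Ccr2, and enter the spinal cord in EAE, where they turn into macrophages and antigen-presenting cells. Newly arrived cells carry Ly6c, and lose it as macrophage and lysosomal genes come up. Lrg1 encodes a secreted leucine-rich glycoprotein also made by neutrophils, Ifitm6 a myeloid member of the interferon-induced transmembrane proteins, Vcan the proteoglycan versican that marks classical monocytes, Dmkn the secreted protein dermokine, and Crem a cAMP-responsive transcription factor.

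The selected cells were spread unevenly over the libraries. EAE ROS+ replicate 1 held 50 of its 1329 base-gate cells (3.76%, exact binomial 95% interval 2.81 to 4.93), and EAE ROS+ replicate 2 held 406 of 2099 (19.3%, 17.7 to 21.1). EAE ROS- replicate 1 held 11 of 620 (1.77%, 0.889 to 3.15), and EAE ROS- replicate 2 held 44 of 1058 (4.16%, 3.04 to 5.54). EAE ROS+ replicate 2 stood apart with 79.5% of all selected cells, while the other ROS+ library lay between the ROS- libraries, so the gates overlapped. Mean shares were 11.6% ± 11.02 (SD, n = 2) in ROS+ and 2.97% ± 1.69 (SD, n = 2) in ROS-, a difference of 8.59 percentage points (exact permutation test over libraries, two-sided, p = 0.667, where the smallest p that 2 against 2 libraries allow is 0.333). Without EAE ROS+ replicate 2 the difference was 0.796 points. The intervals cover counting error only.

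**Figure D1:**
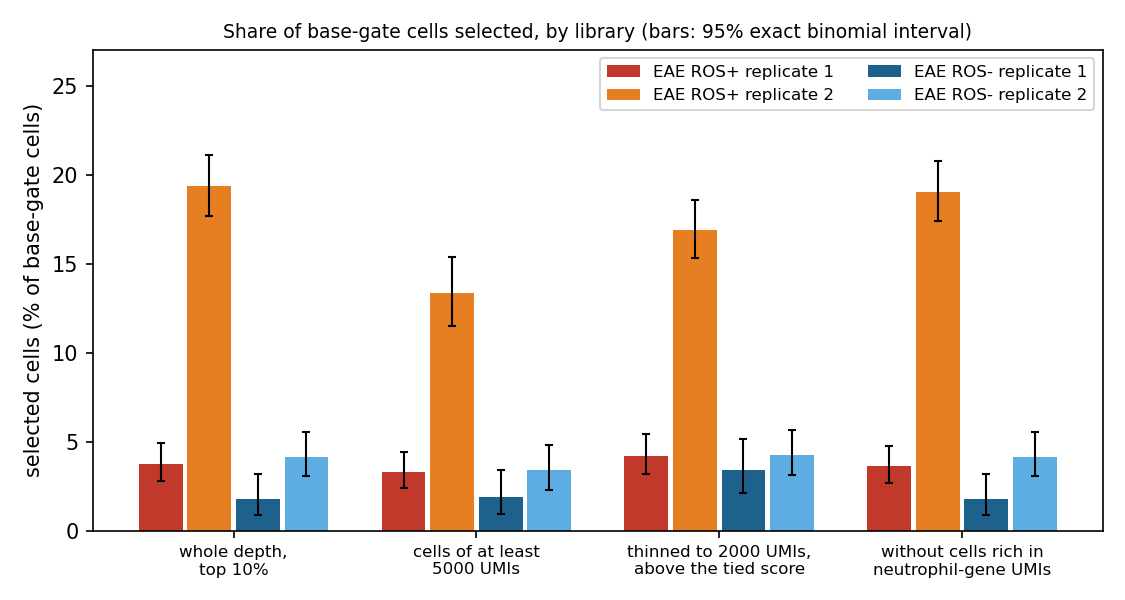
Percent of base-gate cells selected in each of the 4 EAE libraries (bars, with exact binomial 95% intervals), at whole depth, over cells of at least 5000 UMIs, after thinning each cell to 2000 UMIs (only cells above the score at which cells tied), and without the cells of 500 or more neutrophil-gene UMIs. EAE ROS+ replicate 2 is the highest bar in each of the 4 settings, from 13.3% to 19.3%, and the other 3 libraries stay between 1.77% and 4.25%.

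Depth moved with the selection. The median was 4911 UMIs in selected cells and 6945 in the other base-gate cells, and the mitochondrial share was 1.77% and 1.505%. EAE ROS+ replicate 2 was also the shallowest of the EAE libraries, with a median of 5467 UMIs per cell against 6427 to 9543 in the other 3. After thinning every cell to 2000 UMIs, where no base-gate cell had to be left out, the cells above the score at which cells tied made up 16.9% of base-gate cells in EAE ROS+ replicate 2 and 3.39% to 4.25% in the other 3 libraries. With the tied cells kept as well, the shares were 36.1% and 14.4% to 15.6%. Over base-gate cells of 4000 to 7000 UMIs, a range chosen after the data were seen, EAE ROS+ replicates 1 and 2 held 31 of 325 (9.54%) and 281 of 1193 (23.6%), and EAE ROS- replicates 1 and 2 held 8 of 263 (3.04%) and 36 of 608 (5.92%). There the gates did not overlap, and the difference was 12.1 points (exact permutation test, two-sided, p = 0.333, the smallest that 2 against 2 libraries allow).

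The selection is a range of a continuous score, and no clustering was done, so whether it holds a separate type was not tested. The score ran from 0 to 2.12, with the threshold at 0.554. Within 0.05 of it lay 61 cells above and 57 below. Among the 50 cells just inside, 48% held an Lrg1 UMI and 70% an Ifitm6 UMI, and among the 50 just outside 46% and 74% did. Of the selected cells, 185 held UMIs of 2 of the 5 score genes, 197 of 3, 98 of 4 and 26 of all 5, and 5 cells held only 1. The most frequent combination was Lrg1 with Ifitm6 alone, in 68 cells.

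The score genes are described here without a test, because they chose the cells. Ifitm6 had a UMI in 86.7% of selected cells, Lrg1 in 66.9%, Crem in 58.9%, Dmkn in 40.9% and Vcan in 37.8%, so Vcan, which names the cells in part, was undetected in most of them. In the other base-gate cells these shares were 14.1%, 11.4%, 18.1%, 3.59% and 3.31%. Ly6c2, a gene of the base gate and so also given without a test, differed in direction between libraries. In EAE ROS+ replicates 1 and 2 it stood at 23.0 and 14.5 per 10000 UMIs in selected cells, against 13.7 and 16.5 in the others. In EAE ROS- replicates 1 and 2 it stood at 9.61 and 16.7, against 8.28 and 13.8. As a guide to free RNA, 274 microglia-gated cells of the EAE libraries, at a median of 4744 UMIs, had an Ifitm6 UMI in 0 cells, which allows a share of up to 1.09% (3 counts of the total), an Lrg1 UMI in 1.09% and a Crem UMI in 6.93%. These cells held at least 10 UMIs of the microglial gate genes and at most 2 UMIs of the monocyte gate genes. Cells with more monocyte RNA were thus left out, so the shares may be too low. Whether the Crem UMIs were free RNA was not tested. Of these cells 180 came from EAE ROS- replicate 1, 92 from EAE ROS- replicate 2 and 2 from EAE ROS+ replicate 1. This background was therefore not measured in EAE ROS+ replicate 2, which held most of the selected cells.

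Levels are given as CPM, the summed counts of a class in a library scaled to its TMM-adjusted total. Ifitm6 lay at 885 and 632 CPM in the selected cells of EAE ROS+ replicates 1 and 2 and at 746 and 537 CPM in those of EAE ROS- replicates 1 and 2, against 18.6 to 55.3 CPM in the other cells. Lrg1 lay at 230, 542, 22.3 and 297 CPM in the same order, against 3.12 to 42.1 CPM. Thus Ifitm6 was high in the selected cells of all 4 libraries, whereas the 11 selected cells of EAE ROS- replicate 1 held only 2 Lrg1 UMIs, a lower level than in the unselected cells of EAE ROS+ replicate 2. Vcan lay at 95.2, 110, 33.4 and 80.1 CPM, and Dmkn at 61.6, 202, 66.8 and 160 CPM. In EAE ROS- replicate 1 these levels were 3 Vcan UMIs in 2 selected cells and 6 Dmkn UMIs in 1. Of its 11 selected cells, 11 held an Ifitm6 UMI, 8 a Crem UMI and 1 an Lrg1 UMI. The selection there thus rested mainly on Ifitm6 and Crem, and the name with Lrg1 and Vcan described few of these cells.

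The sequences upstream of 4 score genes are shown because these genes were scored as a set. They are the 250 bases before the RefSeq start (GRCm38.p6), 5′ to 3′ on the gene's strand, for Lrg1 at chr17:56121947-56122196, Ifitm6 at chr7:141016893-141017142, Vcan at chr13:89742513-89742762 and Dmkn at chr7:30763506-30763755, the first of 3 listed starts of Dmkn. Capitals mark matches on either strand to ATTGC (a half-site of the C/EBP family of myeloid factors), TGANTCA (AP-1), GAGGAAG (PU.1) and TGACGTCA (the cAMP response element).
Lrg1: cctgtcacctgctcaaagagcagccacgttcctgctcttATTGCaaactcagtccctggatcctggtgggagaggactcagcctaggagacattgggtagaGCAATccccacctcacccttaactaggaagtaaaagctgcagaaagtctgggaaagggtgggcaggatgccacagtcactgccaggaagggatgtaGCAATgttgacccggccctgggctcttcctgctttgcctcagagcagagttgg
Ifitm6: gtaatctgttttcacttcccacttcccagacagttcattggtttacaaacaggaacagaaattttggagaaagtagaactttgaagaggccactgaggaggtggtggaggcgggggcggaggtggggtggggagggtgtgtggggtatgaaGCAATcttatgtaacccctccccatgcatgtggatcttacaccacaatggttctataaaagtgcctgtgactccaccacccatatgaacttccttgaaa
Vcan: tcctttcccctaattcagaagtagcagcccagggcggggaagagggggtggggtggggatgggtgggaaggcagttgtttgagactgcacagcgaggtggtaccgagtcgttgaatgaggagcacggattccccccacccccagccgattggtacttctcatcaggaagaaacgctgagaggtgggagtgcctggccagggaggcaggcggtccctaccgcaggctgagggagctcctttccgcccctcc
Dmkn: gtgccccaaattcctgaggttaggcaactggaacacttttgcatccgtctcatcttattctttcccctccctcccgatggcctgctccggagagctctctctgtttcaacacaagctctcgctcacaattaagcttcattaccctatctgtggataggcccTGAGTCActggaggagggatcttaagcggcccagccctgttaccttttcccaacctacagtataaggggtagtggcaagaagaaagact
ATTGC matched 3 times before Lrg1 and once before Ifitm6, and TGANTCA matched once before Dmkn. Of 32851 RefSeq starts, 23.1% held an ATTGC match in the same window, 6.75% TGANTCA, 10.6% GAGGAAG and 1.55% TGACGTCA. No motif of the 4 was shared by all 4 windows.

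A few selected cells went against the monocyte label. Of the 511 cells, 10 held 500 or more UMIs of the neutrophil genes S100a8, S100a9, Retnlg, Ngp and Camp, 2 of them in EAE ROS+ replicate 1 and 8 in EAE ROS+ replicate 2. The next highest selected cell held 139. The 10 cells carried a median of 1211.5 S100a8 UMIs and 251 Ngp UMIs, and together 3 Ccr2 UMIs and 4 Csf1r UMIs; they held 95.6% of all UMIs of the 5 genes in the selected cells. In the other 501 cells Csf1r, the monocyte growth factor receptor outside the rule, had a UMI in 77.2%, and Ngp in 3.59%. In the 4595 base-gate cells outside the selection these shares were 90.8% and 2.57%. Csf1r stood at 3.43 per 10000 UMIs in the 501 cells and at 4.67 in those 4595.

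**Figure D2:**
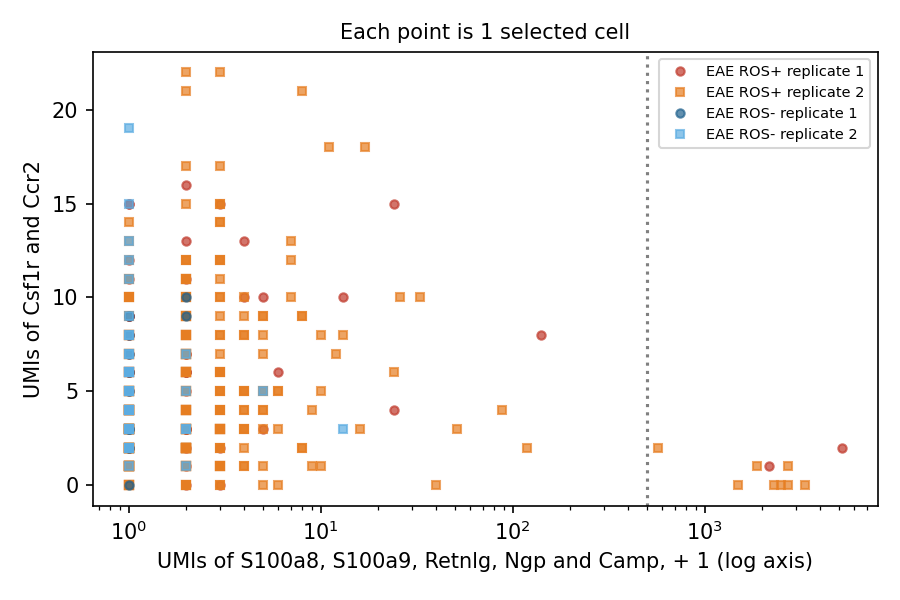
Each point is 1 selected cell, with its UMIs of 5 neutrophil genes plus 1 on a log axis against its UMIs of Csf1r and Ccr2. The 10 cells to the right of the dotted line at 500 UMIs come from the ROS+ libraries alone and hold few Csf1r or Ccr2 UMIs.

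Markers of other cell types were summed in both classes. The 12 T and natural killer cell genes summed to between 0 and 0.122 per 10000 UMIs in the selected cells, with 9 of 12 at 0 and Cd3e, Cd3g and Trac among them, and to 0.0356 to 2.77 in the other cells. The 13 dendritic cell genes summed to 0.184 and 0.185 in the selected ROS+ cells and to 2.57 and 1.503 in the selected ROS- cells, with Xcr1 at 0, and to 0.179 and 0.241 in the other ROS+ cells and 1.92 and 3.93 in the other ROS- cells. The 14 neutrophil genes summed to 212 and 93.5 per 10000 in ROS+ and to 2.17 and 2.48 in ROS- in the selected cells, and to 3.13 and 4.09 in ROS+ and 1.64 and 2.09 in ROS- in the other cells. The 12 microglial genes summed to 9.13 to 17.9 per 10000 in selected and 12.8 to 19.2 in the other cells. The 6 B cell genes summed to 0.632 and 0.314 per 10000 in ROS+ and to 1.08 and 0.244 in ROS- in the selected cells. In the other cells they summed to 0.113 and 0.102 in ROS+ and to 0.257 and 0.0664 in ROS-. Of these 6 genes 4 were at 0 in the selected cells, Cd79a and Ms4a1 included, and 3 in the other cells. The part of other cell types in the differences below was not tested, except where values without such cells are given.

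The selected cells were next set against the other base-gate cells over the genes outside the rule. Since the score was computed on the same cells, these differences are a description with no test. For each gene, the log2 difference was taken within each library (prior count 2), and a gene was counted when it passed 1.5-fold the same way in all 4 libraries. Of 9377 genes outside the rule, 211 were higher (2.25%) and 445 lower (4.75%). Many of the lower genes were sparse: 279 had 0 UMIs in the 11 selected cells of EAE ROS- replicate 1, and with sums of 0 set to 3 counts 174 remained lower (1.86%). Among the 2704 genes at 50 CPM or more in a class, 112 were higher (4.14%) and 129 lower (4.77%), 124 of these with zeros set to 3 counts. With the same sign in all 4 libraries and any size, 1044 genes were higher (11.1%) and 1996 lower (21.3%). Counted over 3 of the 4 libraries, the number past 1.5-fold was 906 to 1202, the highest without EAE ROS- replicate 1. The median log2 difference was -0.32 over all genes (-0.03 with zeros at 3 counts) and -0.01 over the genes at 50 CPM or more.

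Of the 22 measured genes of the classical monocyte list, 5 passed 1.5-fold higher in the selected cells in all 4 libraries, among them Gm9733, Ms4a4c, S100a6 and Gpr141, and none passed lower, with a list median of 0.59. The integrin chain Itgam (-0.94 ± 0.99), the transcription factor Klf4 (-0.72 ± 0.42) and the lectin Clec4d (-0.84 ± 0.58) had a negative log2 difference in all 4 libraries (mean ± SD, n = 4) without passing 1.5-fold in each. Gm9733 lay at 218, 207, 89.1 and 277 CPM in selected cells of EAE ROS+ replicates 1 and 2 and EAE ROS- replicates 1 and 2, against 14.8 to 30.6 CPM in the other cells. The classes did not overlap, the selected cells of EAE ROS- replicate 1 were the lowest of the 4, and the mean log2 difference was 2.92 ± 0.89 (SD, n = 4 libraries). Without EAE ROS- replicate 1, 12 of the 22 list genes passed. By library, the list median was 0.81 and 0.78 in EAE ROS+ replicates 1 and 2 and -0.03 and 0.77 in EAE ROS- replicates 1 and 2. In the same order, the list summed to 307, 277, 139 and 248 per 10000 UMIs in selected cells. In the other cells it summed to 225, 220, 146 and 156. S100a6, a calcium-binding protein, was 2.04-fold higher.

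Several other genes were higher by a larger factor than most. Tspan13, a tetraspanin, was 4.23-fold higher, Tmem176b 4.11-fold, Rara, the retinoic acid receptor alpha, 3.60-fold, and Il18, an inflammasome cytokine, 3.51-fold. Anxa1, the glucocorticoid-induced annexin that limits leukocyte entry, lay at 375, 316, 200 and 236 CPM against 64.2 to 95.8 CPM, a log2 difference of 1.86 ± 0.42. Ighm, a gene of the B cell list, was 4.64-fold higher, on 5 to 64 UMIs per library. The log2 difference of 1100001G20Rik was 2.63 ± 1.42 and 1.57 without the 10 cells rich in neutrophil-gene UMIs. Gm5150 was 3.96-fold higher.

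**Figure D3:**
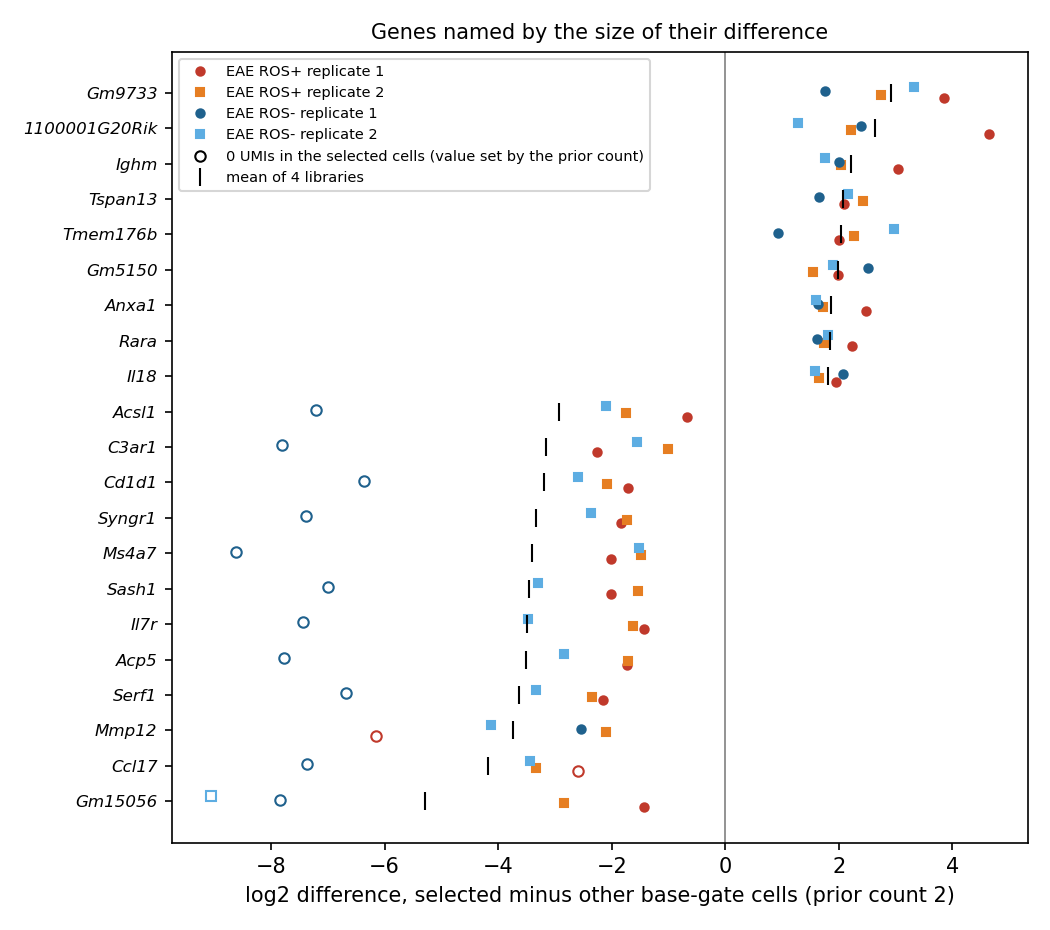
Log2 difference between selected and other base-gate cells in each EAE library (points) and its mean (ticks) for 9 of the 12 genes highest and the 12 lowest by the naming rule. Each higher gene shown lies to the right of 0 in each library, and 11 of the 12 lower genes have 0 UMIs in EAE ROS- replicate 1 (open points), whose position depends on the prior count.

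Interferon-induced genes were higher as well. Ifitm2 and Ifitm3 encode membrane proteins that block virus entry and belong to the same family as Ifitm6. Ifitm2 lay at 2405, 2188, 2215 and 2737 CPM in selected cells against 636 to 931 CPM in the others, with no overlap between the classes and a log2 difference of 1.68 ± 0.35. Ifitm3 was 2.18-fold and Ifitm1 2.34-fold higher. The family members are close in sequence, and no source used here states how reads shared between them were counted. Of the 19 genes of the interferon response list, 6 passed 1.5-fold in all 4 libraries (Ifit2, Ifit3, Isg15, Oasl1, Ifi205 and Ifitm3), none passed lower, and the list median was 0.89. Cxcl10, the interferon-induced chemokine, lay at 1940.4, 3769, 468 and 3338 CPM against 337 to 612 CPM, so it was higher in 3 libraries and close to the other cells in EAE ROS- replicate 1, where 42 UMIs were counted. With both classes drawn from cells of 4000 to 7000 UMIs, only 1 of the 19 interferon genes passed and the list median was 0.32.

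Macrophage genes were lower. Spp1 (osteopontin) lay at 92.4, 94.5, 22.3 and 36.1 CPM in selected cells against 512, 489, 256 and 357 CPM in the others, a log2 difference of -2.91 ± 0.57 with no overlap. Cd9, a tetraspanin of lipid-laden macrophages, lay at 134 to 196 CPM against 495 to 1064 CPM, a log2 difference of -1.92 ± 0.44. Arg1, the arginine-degrading enzyme of tissue-repair and suppressive macrophages, lay at 386, 660, 66.8 and 537 CPM against 1991, 2706, 795 and 2172 CPM. All 4 libraries thus showed the same direction for these 3 genes. Of the 17 macrophage differentiation genes, 10 passed 1.5-fold lower in all 4 libraries and none higher, with a list median of -1.45; besides Spp1 and Cd9 these were C1qa, C1qb and C1qc (complement C1q), Apoe, Ms4a7, Cd63, Gpnmb and Fabp5. The count was 9 of 17 among cells of 4000 to 7000 UMIs and 11 of 17 when the top 10% was taken within each library.

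**Figure D4:**
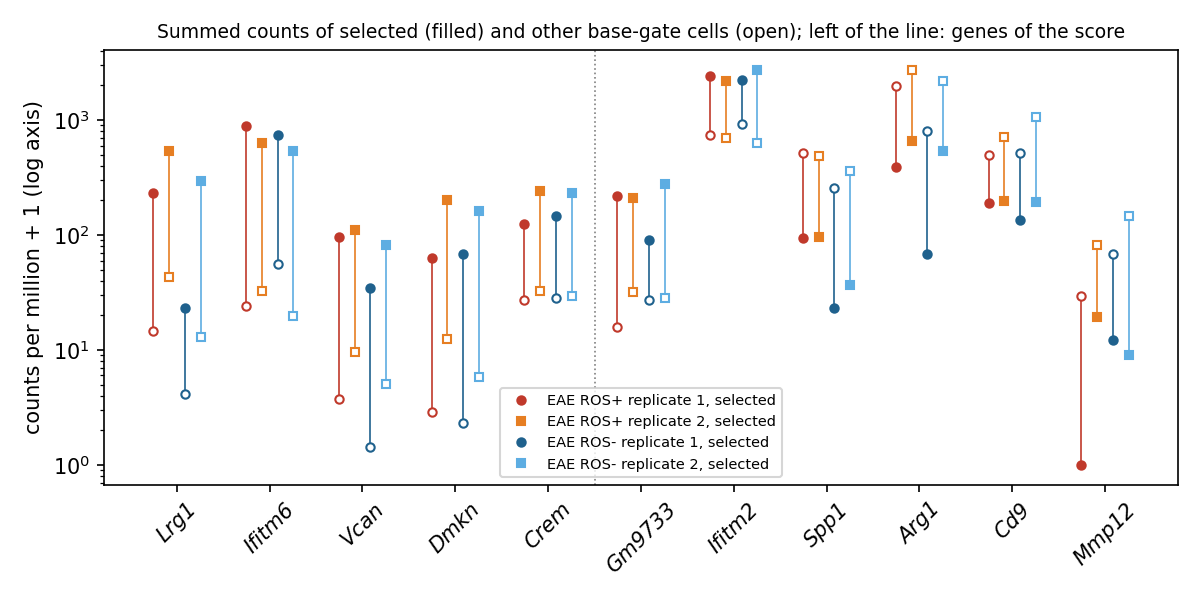
CPM plus 1 on a log axis for the 5 score genes (left of the dotted line) and 6 other genes, in the selected (filled) and the other base-gate cells (open) of each EAE library, joined by lines. Gm9733 and Ifitm2 lie higher and Spp1, Arg1, Cd9 and Mmp12 lower in the selected cells of all 4 libraries.

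Lysosomal, glycolytic and antigen-presentation genes were lower to a smaller degree. Ctsd (cathepsin D) lay at 385 to 700 CPM in selected cells against 1535 to 2022 CPM, and 6 of 14 lysosomal genes passed 1.5-fold lower, with a list median of -0.88. Of the 20 hypoxia and glycolysis genes 6 passed lower (Aldoa, Gapdh, Pgk1, Eno1, Ldha and Egln3) and none higher, with a median of -0.91; Gapdh was at 0.419 times the level of the other cells. When the top 10% was taken within each library, 2 lysosomal and 1 glycolytic gene passed. The class II genes H2-Aa, H2-Ab1 and H2-Eb1 were the only 3 of 11 antigen-presentation genes to pass lower. H2-Ab1 lay at 4186, 1801, 7626 and 3238 CPM against 11293, 5965, 13682 and 10943 CPM, where the values of the classes overlapped across libraries but not within any of them. None of the 11 passed among cells of 4000 to 7000 UMIs, although the list median there was -0.91, and none passed with plain library totals.

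The 12 genes lowest in the selected cells by the naming rule were mostly scarce there. Mmp12, the macrophage elastase, had 0, 35, 1 and 2 UMIs in the selected cells of the 4 libraries and lay at 28.7 to 147 CPM in the others, and its mean log2 difference was -2.64 with the 0 set to 3 counts. Acp5, the tartrate-resistant acid phosphatase, lay at 56.0, 58.3, 0 and 24.0 CPM against 88.2 to 193 CPM, a mean of -1.92 with the 0 set to 3 counts. The other 10 were Gm15056, Ccl17, Serf1, Il7r, Sash1, Ms4a7, Syngr1, Cd1d1, C3ar1 and Acsl1. With zeros at 3 counts, 9 of the 12 still passed 1.5-fold in all 4 libraries.

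Genes of the NADPH oxidase, the enzyme that makes superoxide in phagocytes, differed in both directions. Of 7 genes 1 passed 1.5-fold higher in all 4 libraries and none lower. The membrane subunits Cybb and Cyba were 0.705 and 0.578 times as high in the selected cells, with the same sign in all 4 libraries, and did not pass 1.5-fold in each. The median of the 7 genes was 0.15. The 19 genes of the cAMP and CREB list, to which Crem is related, had a median of -0.03, with Creb1 and Crebbp higher by 1.81-fold and 2.15-fold. With plain library totals in place of TMM, Creb1 and Crebbp kept their direction but did not pass in all 4 libraries. Of 20 myeloid transcription factors only Batf3 passed, on 3 to 20 UMIs per library, and its mean log2 difference was -0.05 among cells of 4000 to 7000 UMIs. Of 17 immediate-early and dissociation stress genes none passed, with a median of -0.19; the cords had been digested with collagenase. The 14 cytokine and enzyme genes had 3 lower members (Arg1, Inhba and Tnfsf9) and none higher, with a median of -1.21, and of 17 chemokine genes Ccl9 was higher and Ccl3, Ccl5 and Cxcl16 lower.

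The same genes were also followed over the number of score genes with a UMI. Over 2725, 1489, 506 and 375 base-gate cells with 0, 1, 2 and 3 or more score genes, leaving out the cells of 500 or more neutrophil-gene UMIs, mean Gm9733 levels over the libraries were 0.176, 0.320, 0.790 and 1.34 per 10000 UMIs. Cd9 levels were 7.61, 5.80, 4.14 and 2.46, and Arg1 levels 19.6, 17.9, 12.9 and 8.77. The summed interferon genes stood at 54.9, 68.3, 90.3 and 103 per 10000. The classical monocyte list, which includes Gm9733, did not rise at each step, with mean sums of 190, 180, 193 and 241. In EAE ROS+ replicate 1 that sum was 226 in cells with 0 score genes and 218 in cells with 3 or more. Only 2 cells of EAE ROS- replicate 1 had 3 or more score genes.

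**Figure D5:**
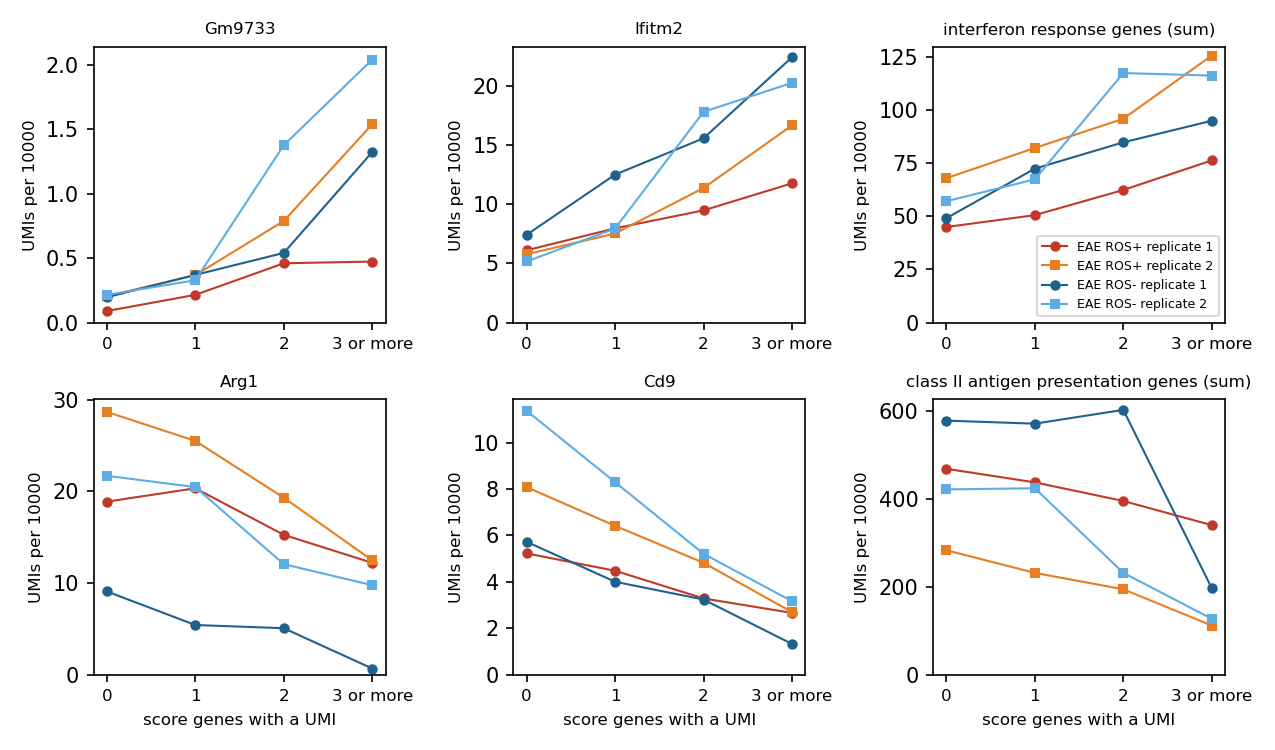
UMIs per 10000 of 4 genes and of 2 summed gene lists, by the number of score genes with a UMI, in base-gate cells of each EAE library. Gm9733, Ifitm2 and the interferon genes are higher, and Arg1, Cd9 and the class II genes lower, in cells with 3 or more score genes than in cells with none, in each library; the last point of EAE ROS- replicate 1 rests on 2 cells.

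Cells chosen by other gene scores among the same base-gate cells overlapped with these to a degree that differed between the scores. Of the 511 cells of highest Ms4a7, Apoe and Apoc2, 2 were among the selected cells (0.391% of each set), and of the 511 of highest Arg1 and Mmp12, 7 were (1.37%), where 10.0% of all base-gate cells were selected. The Saa3, Cxcl1 and Cxcl2 range shared 41 cells (8.02%). The libraries differed in these ranges, and that of Ms4a7, Apoe and Apoc2 took 27.5% of the base-gate cells of EAE ROS+ replicate 1. In EAE ROS+ replicate 2, which held most of the selected cells, the 3 ranges took 2.91%, 11.9% and 9.86% of base-gate cells. Of the selected cells of that library they took 0.493%, 1.72% and 8.62%, in the order given. An interferon score of Ifit1, Ifit2, Ifit3, Isg15 and Rsad2, added after the data were seen, shared 117 cells (22.9%). The shared cells of that score numbered 8, 100, 1 and 8 in EAE ROS+ replicates 1 and 2 and EAE ROS- replicates 1 and 2. They were 16%, 24.6%, 9.09% and 18.2% of the selected cells there, where the interferon range took 4.06%, 15.9%, 3.55% and 9.64% of the base-gate cells of the same libraries. Mean Gm9733 levels were 199 CPM in the selected cells and 6.95 to 17.9 CPM in the 3 ranges named first. Mean Ifitm2 levels were 2448 CPM and 587 to 644 CPM in the same order. For the cells of the interferon score, which shared the most cells, neither level was computed. TMM was fitted here over the sums of the selected cells and the 3 ranges, so the CPM differ somewhat from those given above.

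The ROS gates were then compared within the selected cells, as sums per library (quasi-likelihood test in edgeR; genes passed at a p under 0.05 after Benjamini-Hochberg adjustment). Neutrophil genes led this comparison. Of 3577 genes, 7 rose in ROS+ (0.196%) and 1 fell (0.028%): the neutrophil genes S100a9, S100a8, Ngp, Camp and Lcn2, with 1100001G20Rik and the acute-phase gene Saa3, were higher, and Cd209a, a dendritic cell lectin, was lower. S100a8 lay at 11566 and 4923 CPM in the ROS+ libraries and at 29.4 and 85.5 CPM in the ROS- libraries, a log2 difference of 6.90 ± 0.53 (SE, edgeR adjusted p = 0.000475). Without the 10 cells of 500 or more neutrophil-gene UMIs, none of 3529 genes passed in edgeR, 127 had an unadjusted p under 0.05, and the log2 difference of S100a8 was 2.85 (adjusted p = 0.24). DESeq2 on all selected cells called 9 genes higher and 2 lower. With 1 library dropped at a time, edgeR called 26 and 24 genes (EAE ROS+ replicates 1 and 2 dropped) and 9 and 149 (EAE ROS- replicates 1 and 2 dropped).

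Saa3 lay at 1654 and 1818 CPM in selected ROS+ cells and at 88.1 and 329 CPM in selected ROS- cells, with no overlap, a log2 difference of 2.87 ± 0.42 (SE, edgeR adjusted p = 0.0284; 0.24 without the 10 cells, where the difference was 2.88). Cd209a had 0 and 1 UMIs in the ROS+ libraries and 8 and 12 in the ROS- libraries. This gene was chosen for mention after its values were seen, because it was the only one to fall. None of the 7 NADPH oxidase genes passed in the selected cells: Cybb lay at 747 and 663 CPM in ROS+ and at 499 and 595 CPM in ROS-, a log2 difference of 0.35 ± 0.26 (SE, edgeR adjusted p = 0.98).

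In the other base-gate cells, 2 of 11591 genes rose in ROS+ (0.0173%) and 29 fell (0.25%), none of them with an average log2 CPM of 5 or more. The 2 that rose, S100a9 (edgeR adjusted p = 0.00626) and Camp (0.0494), and Cd209a among those that fell (0.0132; 0 and 0 UMIs in ROS+, 65 and 58 in ROS-) were also called in the selected cells and are named for that reason. The difference between the gate effects of the 2 classes was tested in 1 model with the library as a block. Of 10216 genes, 7 passed (0.0685%). Upp1, uridine phosphorylase, lay at 277 and 296 CPM in selected ROS+ cells and at 58.7 and 81.3 CPM in selected ROS- cells, with no overlap, whereas in the other cells it lay at 158 and 254 against 125 and 226 CPM. Its gate difference was larger in the selected cells by 1.97 ± 0.37 on the log2 scale (SE, edgeR adjusted p = 0.000378), and by 2.04 without the 10 cells. Chi3l3, a chitinase-like protein of alternatively activated myeloid cells, differed by 1.62 ± 0.34 (edgeR adjusted p = 0.00379) and Saa3 by 1.51 ± 0.34 (edgeR adjusted p = 0.0178). Within the selected cells alone, Upp1 and Chi3l3 did not pass between the gates (edgeR adjusted p = 0.0801 and 0.196). In the test between classes DESeq2 called only 2 genes, S100a8 and Lcn2. Dropping EAE ROS+ replicate 1 left 2 genes, dropping EAE ROS- replicate 2 gave 29, and none passed in edgeR without cells holding 3 or more neutrophil-gene UMIs, where 334 had an unadjusted p under 0.05.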

How the data were processed

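CD11b+ spinal cord cells were profiled as droplet libraries of transcript 3′ ends (Chromium Single Cell 3′ v2), per the labels' protocols. The authors deposited whole-number UMI counts per gene and barcode for each of 6 libraries. Per the submitters' processing notes, the tools were Cell Ranger 2.0.1, Seurat 3 and R 3.4.2 and the build mm10, with no settings given. The members, gene lists and tests were chosen with earlier results of these data known.

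The filter on cells (200 genes or more, mitochondrial share of 10% or less) removed 1 barcode. No doublet caller was used. Among EAE libraries, 28 barcodes occurred in more than 1 library, and 5 selected cells carried one. Counts were summed per library and class. Selected sums ran from 73861 to 2104010 UMIs and the others from 4553433 to 14321944. Between replicates chi-square per degree of freedom ran from 4.20 to 46.9, above counting error. Sums were fitted with edgeR 4.0.16 in R 4.3.3 (TMM, filterByExpr with a minimum count of 10, 2 residual degrees of freedom), with DESeq2 1.42.0 as an alternative. Standard errors are the absolute log2 difference over the square root of F. The fits were tested on simulated data. Cells were chosen and drawn with Python 3.11.15, numpy 2.4.6, scipy 1.17.1, pandas 2.3.3 and matplotlib 3.10.9.

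Genes were named by rule: for selected against other cells, up to 12 per direction past 1.5-fold in all 4 libraries with at least 50 CPM in the higher class, and up to 4 per list with the same sign in all 4; for the gates, up to 6 per direction that passed the test, averaged 5 or more in log2 CPM and did not overlap; the 7 NADPH oxidase genes; and up to 6 per direction in the test of the difference between classes. Other genes in the text are members of the lists, which are named as counted. Of 37 lists (468 genes, all found), lists on glutathione, ROS scavenging, coagulation, matrix, adhesion, TGF-beta, hyaluronan, cell cycle and oxidative phosphorylation had at most 2 genes past 1.5-fold. Alternatives were other thresholds of the score, thinning, other gates, leaving out libraries or cells, other normalisation and no filter; leaving out the cells of 500 or more neutrophil-gene UMIs, the band of 4000 to 7000 UMIs, cells of 5000 UMIs or more, thinned cells above the tied score and the interferon score were chosen after seeing the data. A few genes that the rule names are not reported here.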

Additional observations from a re-analysis of the deposited data

Results flagged for a closer look

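These 7 genes had a difference between the ROS gates that was not the same in the selected and in the other base-gate cells, by the test of that difference across 10216 genes (edgeR, library as a block). Values are the gate difference in selected cells minus that in the others, on the log2 scale. The value was 5.81 for S100a8 (adjusted p = 2.92e-39), of which 2.01 was left without the cells of 500 or more neutrophil-gene UMIs, and 4.86 for Lcn2 (adjusted p = 3.62e-11). Both are neutrophil genes, and EAE ROS- replicate 1 held 2 S100a8 and 0 Lcn2 UMIs in its selected cells. For Gm15056 the fitted value was 10.38 (adjusted p = 0.0351), which rests on 12, 22, 0 and 0 UMIs in the selected cells and is no bound. For Upp1 it was 1.97, for Chi3l3 1.62 and for Saa3 1.51, each with selected ROS+ libraries above both selected ROS- libraries. For F13a1, the clotting factor XIII chain of monocytes, it was -1.34 (adjusted p = 0.0311): in the other cells it lay at 127 and 124 CPM in ROS+ and 38.4 and 59.9 CPM in ROS-, and in selected cells at 184 and 212 against 103 and 299 CPM.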

How the results depend on the processing

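The difference of the mean shares between the gates kept its sign in every alternative that gave a value. It was 0.796 to 16.4 points when 1 library was left out of the main setting. For the top 20% EAE ROS+ replicate 1 (10.8%) lay below both ROS- libraries (11.5% and 11.9%). Only EAE ROS+ replicate 2 (32.4%) lay above them there. The share with the top 10% within each library is fixed by construction and gave none.

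The number of genes called between gates in the selected cells (8) was 22 for the top 20%, 5 for the top 10% within each library, 4 without Crem, 25 after thinning, 3 at 4000 to 7000 UMIs and 39 with no count filter. It was 0 in edgeR with at least 20 monocyte UMIs (136 with unadjusted p under 0.05), 0 without cells holding neutrophil genes (93) and 0 without the cells of 500 or more neutrophil UMIs (127). Leaving out a library gave 9 to 149. In the other cells (31) it was 111 with DESeq2, 311 with no filter and 29 to 152 leaving out a library. The test between classes (7) gave 4 for the top 5%, 3 for the top 20%, 1 within each library, 4 after thinning, 25 above the tied score, 0 without cells holding neutrophil genes, 2 at 4000 to 7000 UMIs, 2 with DESeq2 and 2 to 29 leaving out a library. Genes past 1.5-fold (656) numbered 261 for the top 20%, 324 within each library, 118 after thinning, 379 at 4000 to 7000 UMIs, 1516 with no filter and 906 to 1202 leaving out a library. Where a library is left out of a gate test, the lone sample of its group is assumed to vary like the others. A gene past 1.5-fold then had to pass in 3 libraries instead of 4, a looser requirement, so those counts are not like for like. The cause of the other changes was not tested.

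With the replicate number as a block (replicate block), 15 genes were called in the selected cells, among them H2-Ab1, H2-Aa and Cd74 lower in ROS+. In the other cells 141 were called. The share difference was 8.59 points (exact permutation of pairs, two-sided, p = 0.5, the smallest that 2 pairs allow). Same-numbered libraries deviated together with correlations of 0.18 and 0.36 over 2 pairs, and share only a number.

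Of 1738 values of named genes, 1528 kept their direction within 1 SD, 196 moved and 14 reversed. In the top 5% Il18 was -0.43, Oasl1 -0.75, Prtn3 -0.40, Batf3 -2.01, Creb1 -0.87, Nr4a1 -1.48 and Ly6c1 -1.94, where EAE ROS- replicate 1 had 2 cells. Prtn3 was -0.34 with 20 monocyte UMIs, -0.54 without cells holding neutrophil genes and -0.22 at 4000 to 7000 UMIs, where Batf3 was -0.047. Eno3 was 0.20 in the top 20%. After thinning Ccl3 was 0.24, Mcm6 0.0024, and the difference between classes -0.20 for Gm15056 and -0.0857 for Saa3. Counts were most limited in EAE ROS- replicate 1, whose 11 selected cells held 73861 UMIs in all, so that 1 UMI is 11.1 CPM.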
